A study of Mus musculus with 9 samples.

Results

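Immunoglobulin transcripts were examined in bulk RNA sequencing libraries of regulatory T cells (Treg cells) isolated from mouse spleen. The members were the 237 of 26683 rows of the count table whose symbols name an immunoglobulin constant gene (Ighm, Ighd, Ighe, Igha, an Ighg gene, Igkc or an Iglc gene) or a numbered V segment of the heavy, kappa or lambda chain. They comprised 8 heavy chain constant genes, 1 kappa and 4 lambda constant genes, and 117 heavy, 104 kappa and 3 lambda V segments. On mm10 the heavy chain members lie at chr12:113254830-116000461, the kappa members at chr6:67609713-70726966 and the lambda members at chr16:19061618-19260859, and 1 member, Igkv8-23-1, was not placed. The libraries came from 4 EsrrgNf/f.Foxp3YFP-Cre mice (KO 1 to KO 4) and 5 B6N.Foxp3YFP-Cre mice (WT 1 to WT 5), all labelled female and 2 to 3 months old, with RNA taken from each mouse separately. Both groups carried Foxp3YFP-Cre, by its name a yellow fluorescent reporter and Cre recombinase driven from Foxp3, and the KO mice in addition had floxed Esrrg, which encodes a nuclear receptor (estrogen-related receptor gamma). The B6N prefix stands in the WT strain name alone, so a difference in colony cannot be told apart from the genotype. Cells were isolated as CD4+Foxp3+, with no B lineage marker named in the labels. One question was whether few V segments dominate in KO 1 and KO 4, titled Err-Treg-1 and Err-Treg-5.

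An antibody pairs a heavy chain with a kappa or lambda light chain. Each chain joins a variable domain, cut and pasted from a V segment and a J segment (with a D segment between them in the heavy chain), to a constant domain, and the heavy constant gene sets the isotype. IgM and IgD are made before class switching, while IgG, IgA and IgE follow it. A B cell and its descendants normally use a single rearranged V segment for each chain, so an expanded clone adds reads to 1 heavy and 1 light V segment. Plasma cells, the antibody-secreting stage, carry far more immunoglobulin RNA than other B cells. The heavy chain locus can also be transcribed without a joined V segment, as germline transcripts. Such transcripts carry a constant gene but no V sequence.

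The total count per library ran from 15269014 to 17425634, so depth was similar throughout. Foxp3 had 8817 to 9858 counts in every library. Esrrg had 0 counts in all 9 libraries, so it could not be used to check the genotype labels. KO 4 stood apart in Xist, the RNA of the inactive X chromosome, with 27 counts against 27355 to 35693 in the other libraries of this series labelled female. The sex label or the identity of KO 4, which carries the highest immunoglobulin counts, is therefore in doubt. Of the 237 members, 9 had no count in any library and 92 passed the expression filter and were tested.

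Immunoglobulin reads were most abundant in KO 4, next in KO 1, and close to the WT range in KO 2 and KO 3. The members held 51217, 18985, 24230 and 128264 counts in KO 1 to KO 4, against 25262, 18428, 20117, 16441 and 15848 counts in WT 1 to WT 5. As a share of all counts this was 0.797% in KO 4 and 0.294% in KO 1, with 95% Wilson intervals of 0.792 to 0.801 and 0.291 to 0.297, against 0.0999% to 0.150% in the WT libraries. KO 2 lay within the WT range at 0.120% and KO 3 just above it at 0.158%. The KO and WT groups therefore overlapped, and the gap between KO 4 and KO 1 was wider than that between KO 1 and WT 1. All intervals cover counting error alone. Levels below are in CPM, counts scaled to the same library total. In bulk libraries such as these, more cells of a type and more RNA per cell cannot be told apart.

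**Figure D1:**
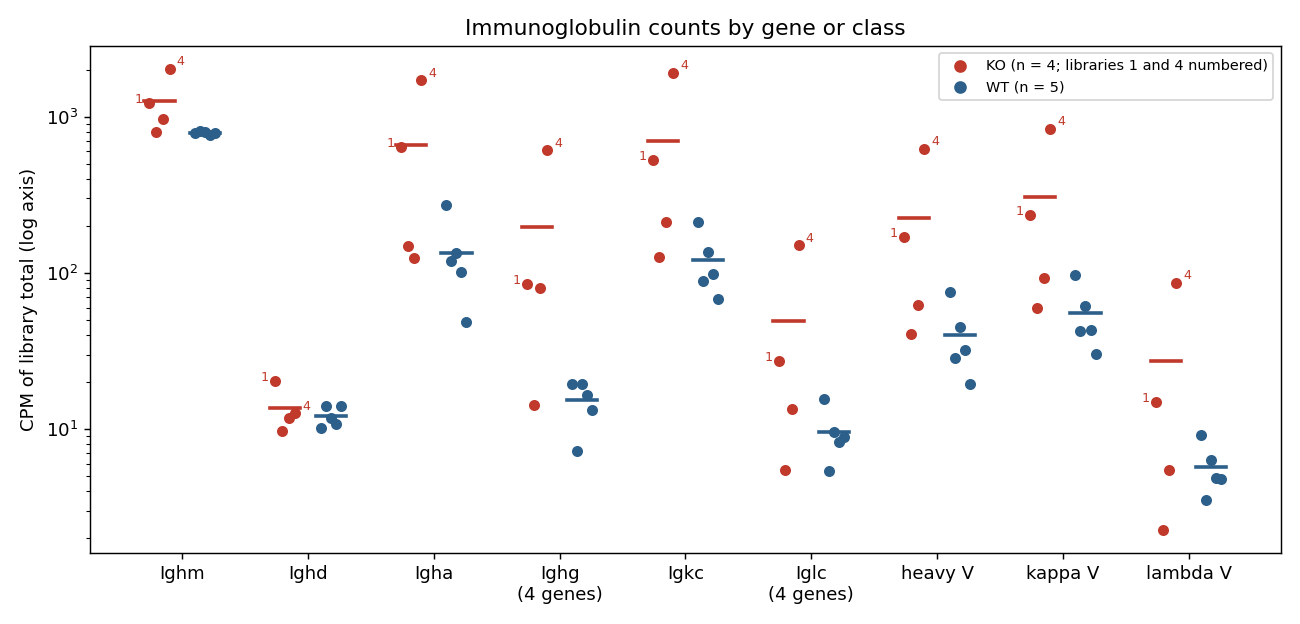
CPM (log axis) of 6 constant genes or gene groups and 3 V classes, with 1 point per library, KO in red left of WT in blue and bars at group means. KO 4 and KO 1 lie above every WT library in all classes except that KO 4 lies within the WT range for Ighd, and Ighm is nearly level across WT at 762 to 809 CPM.

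None of the immunoglobulin genes passed the test between groups. By edgeR's quasi-likelihood test with Benjamini-Hochberg adjustment at 0.05, 0 of 92 tested members were called, against 3.28% of all 12738 genes tested. In KO, 0 members were higher (1.40% of all genes) and 0 lower (1.88% of all genes). Of the 92, 51 had an unadjusted p under 0.05, against 21.6% of all genes. DESeq2 called 17 of the 75 members to which it gave an adjusted p, all higher in KO, and limma-voom called 0. The median log2 fold change (KO over WT) of the tested members was 2.35, beside 0.0052 over all genes, and 91 of 92 were positive. These figures are no independent evidence of a direction, because 60 of the 92 reached the filter level of 0.621 CPM in fewer than 4 WT libraries and so depended on KO counts to enter the test. The median was 1.16 without KO 4 and 0.28 without KO 1 and KO 4 together, with 0 members called in both of those fits. All 4 KO libraries lay above all 5 WT libraries for 6 of the 92 members, against 3.94% of all genes tested, and below them for 0 members, against 5.16% of all genes.

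The number of members above every WT library differed widely between the KO mice. KO 4 exceeded all 5 WT libraries for 90 of the 92 tested members (30.6% of all genes tested) and KO 1 for 76 (28.5% of all genes). KO 3 did so for 35 (16.6% of all genes) and KO 2 for 13 (17.9% of all genes). These counts are a description and no support for a direction, since the same 60 members needed KO counts to be tested.

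Ighm, the mu constant gene of IgM, was the most even constant gene in WT. It had 1226, 794, 972 and 2020 CPM in KO 1 to KO 4, against 784, 809, 800, 762 and 792 CPM in WT 1 to WT 5. KO 2 alone lay inside the WT range, and the 5 WT values had an SD of 17.8 CPM around a mean of 789.5 CPM. The log2 fold change was 0.66 ± 0.24 (SE, edgeR adjusted p = 0.180). Ighd, which gives the delta constant region of IgD, was level in nearly all libraries. It had 20.2, 9.81, 11.8 and 12.7 CPM in KO 1 to KO 4, against 10.2, 14.0, 11.8, 10.9 and 14.0 CPM in WT 1 to WT 5. KO 1 alone lay above WT, KO 2 lay just below it, and KO 4, the library with the most immunoglobulin reads, lay within the WT range. Its log2 fold change of 0.16 ± 0.19 (adjusted p = 0.657 by edgeR) turned to -0.09 without KO 1.

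The switched isotypes varied far more than Ighm among the libraries of both groups. Igha, the alpha constant gene of IgA, the antibody of mucosal surfaces, had 635, 148, 125 and 1714 CPM in KO 1 to KO 4, against 272, 119, 135, 101 and 48.4 CPM in WT 1 to WT 5. KO 2 and KO 3 lay inside the WT range, whose extremes differed 5.63-fold. The log2 fold change was 2.26 ± 0.89 (SE, edgeR adjusted p = 0.203). Per kilobase of annotated exon, Igha averaged 246 CPM in KO and 50.6 CPM in WT, above each Ighg gene in both groups. The highest Ighg gene on this scale, Ighg2c, averaged 47.7 CPM per kilobase in KO and 5.67 CPM per kilobase in WT.

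The Ighg genes encode the gamma constant regions of the IgG subclasses, the main antibodies of serum. Their summed level was 84.5, 14.4, 80.1 and 609 CPM in KO 1 to KO 4, against 19.6, 7.28, 19.6, 16.6 and 13.4 CPM in WT 1 to WT 5. KO 1, KO 3 and KO 4 lay above every WT library here, and KO 2 did not. Ighg2c had 30.9, 10.95, 47.2 and 164 CPM in KO 1 to KO 4, against 13.9, 2.31, 9.56, 7.27 and 4.54 CPM in WT 1 to WT 5. KO 2 lay below WT 1. The log2 fold change of 3.05 ± 0.86 went with the smallest edgeR adjusted p of any constant gene, 0.105. Ighg2b had 38.9, 1.71, 23.0 and 319 CPM in KO 1 to KO 4, against 2.61, 2.25, 8.59, 5.70 and 3.22 CPM in WT 1 to WT 5. KO 2 was the lowest of the 9 libraries for this gene. KO 4 was 71.3 times the WT mean, and the log2 fold change was 4.41 ± 1.36 (SE, edgeR adjusted p = 0.128). Ighg1 had 12.2, 0.570, 6.69 and 84.8 CPM in KO 1 to KO 4, against 0.365 to 3.78 CPM in WT, so that KO 2 lay inside the WT range, with a log2 fold change of 3.96 (edgeR adjusted p = 0.148). Ighg3 reached 41.7 CPM in KO 4, while KO 1 to KO 3 had 2.58, 1.14 and 3.18 CPM, against 1.04 to 1.88 CPM in WT, with a log2 fold change of 2.88 (edgeR adjusted p = 0.192). Near-identical stretches among the Ighg genes could shift reads between them, since the sources used here do not give the counting rule.

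Ighe, the epsilon constant gene of IgE, which arms mast cells, was detected in few mice. It had 0, 0, 0 and 28 counts in KO 1 to KO 4, against 38, 1, 0, 0 and 0 counts in WT 1 to WT 5, and was not tested. The counts thus came almost wholly from KO 4 and WT 1, 1 library of each group. Relative to all switched constant counts, Ighe made up 0.0748% in KO 4 and 0.766% in WT 1. KO 1 had more switched counts than WT 1 (12543 against 4961) and no Ighe count.

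The mixture of switched isotypes differed from mouse to mouse without separating the groups. IgA made up 88.3%, 91.2%, 60.9% and 73.7% of switched constant counts in KO 1 to KO 4, against 92.6%, 94.2%, 87.3%, 85.8% and 78.35% in WT 1 to WT 5. KO 3 and KO 4 lay below the WT range. IgG took 39.1% of them in KO 3 and 26.2% in KO 4, with 95% Wilson intervals of 37.4 to 40.8 and 25.8 to 26.65, against 5.77% to 21.7% in WT. Within IgG, Ighg2b led in KO 1 with 46.0% and in KO 4 with 52.3% of counts, and Ighg2c led in KO 2 with 76.2% and in KO 3 with 59.0%. Ighg2c also led in each WT library, with 31.7% to 71.2% of IgG counts. Its lead was narrow in WT 2, with 38 counts against 37 for Ighg2b, and in WT 5, with 72 against 60 for Ighg1. Thus KO 3, which had a total near WT, had the largest share of IgG among switched counts in the 9 libraries. Of all heavy constant counts, IgG made up 13.98% in KO 4 and 6.74% in KO 3.

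**Figure D2:**
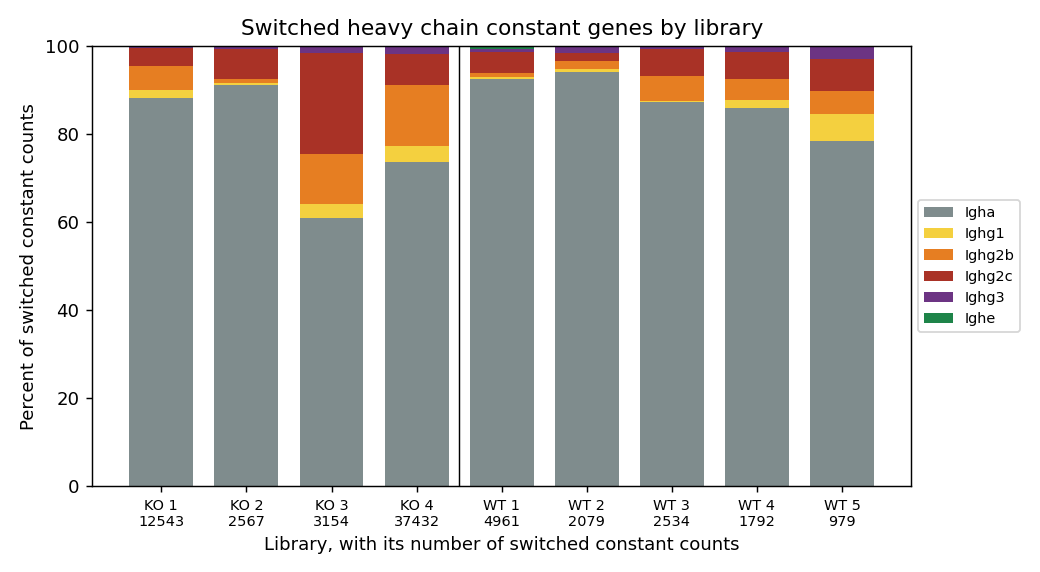
Percent of switched heavy chain constant counts by gene in each library (KO left of WT), with the number of such counts under each bar, from 979 in WT 5 to 37432 in KO 4. Igha takes the largest part in all 9 libraries, and its lowest share is 60.9% in KO 3.

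Light chains were mostly kappa in each mouse. Igkc, the kappa constant gene, had 528, 127, 212 and 1911 CPM in KO 1 to KO 4, against 211, 89.0, 136, 98.0 and 67.9 CPM in WT 1 to WT 5. KO 2 lay inside the WT range, KO 3 level with WT 1, and KO 1 and KO 4 far above. The log2 fold change was 2.51 ± 0.84 (SE, edgeR adjusted p = 0.149). The lambda constant genes summed to 27.4, 5.44, 13.4 and 150 CPM in KO 1 to KO 4, against 15.5, 5.40, 9.62, 8.25 and 8.95 CPM in WT 1 to WT 5. Lambda made up 4.93%, 4.12%, 5.935% and 7.28% of light constant counts in KO 1 to KO 4, against 6.85%, 5.72%, 6.61%, 7.76% and 11.65% in WT 1 to WT 5, so the groups overlapped. Iglc1, Iglc2 and Iglc3 had log2 fold changes of 1.93, 2.31 and 3.78 (edgeR adjusted p = 0.277, 0.159 and 0.186). Iglc3 stood out in KO 4, with 44.9 CPM there, 3.27, 0.443 and 1.04 CPM in KO 1 to KO 3, against 0.244 to 1.60 CPM in WT. It made up 29.9% of lambda constant counts in KO 4, against 2.53% to 22.5% in WT. Iglc4 had 1 count in KO 1 and 1 count in WT 4.

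In KO 4 and KO 1, heavy and kappa V counts differed from the WT mean by folds near those of the switched constant genes and Igkc. The fold of Ighm was smaller, although Ighm ranked the KO libraries in the same order. A fold is taken over the WT level, which for Ighm was 762 to 809 CPM. Heavy V segments summed to 169, 40.7, 62.2 and 622 CPM in KO 1 to KO 4, against 75.85, 28.7, 44.88, 32.0 and 19.35 CPM in WT 1 to WT 5. Kappa V segments summed to 234, 60.1, 92.5 and 838 CPM in KO 1 to KO 4, against 97.3, 42.7, 61.8, 43.0 and 30.5 CPM in WT 1 to WT 5. KO 4 was 15.5 times the WT mean for heavy V, 15.2 times for kappa V and 15.4 times for the switched constant genes together, but 2.56 times for Ighm and 1.04 times for Ighd. KO 1 was 4.21 times the WT mean for heavy V, 4.25 times for kappa V, 4.78 times for the switched genes and 1.55 times for Ighm.

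Kappa V stood in a nearly fixed ratio to Igkc across libraries, heavy V stayed within a narrower range against the switched genes than against Ighm, and lambda V varied more against its constant genes than kappa V. Per 100 Igkc counts there were 44.2, 47.4, 43.6 and 43.9 kappa V counts in KO 1 to KO 4, against 46.1, 48.0, 45.5, 43.8 and 44.9 in WT 1 to WT 5. Per 100 switched constant counts there were 23.5, 25.0, 30.3 and 26.8 heavy V counts in KO 1 to KO 4, against 25.8, 22.8, 29.1, 27.3 and 31.4 in WT 1 to WT 5. Both of these ratios overlapped between the groups although the counts themselves differed more than 10-fold. Heavy V counts per 100 Ighm counts, by contrast, were 13.8, 5.13, 6.40 and 30.8 in KO 1 to KO 4, against 9.68, 3.55, 5.61, 4.20 and 2.44 in WT 1 to WT 5. Per 100 lambda constant counts there were 54.7, 41.9, 40.8 and 57.5 lambda V counts in KO 1 to KO 4, against 58.8, 65.2, 66.5, 58.7 and 53.5 in WT 1 to WT 5. KO 2 and KO 3, with 36 and 84 lambda V counts, lay below each WT library in this ratio. Jchain, which encodes the chain that joins IgM and IgA into polymers and is no member here, had 18.5, 18.3, 25.1 and 20.1 counts per 100 switched counts in KO 1 to KO 4, against 20.9, 19.0, 26.2, 23.4 and 22.9 in WT 1 to WT 5. These are ratios of raw counts of genes of different length, so they compare libraries and not genes.

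**Figure D3:**
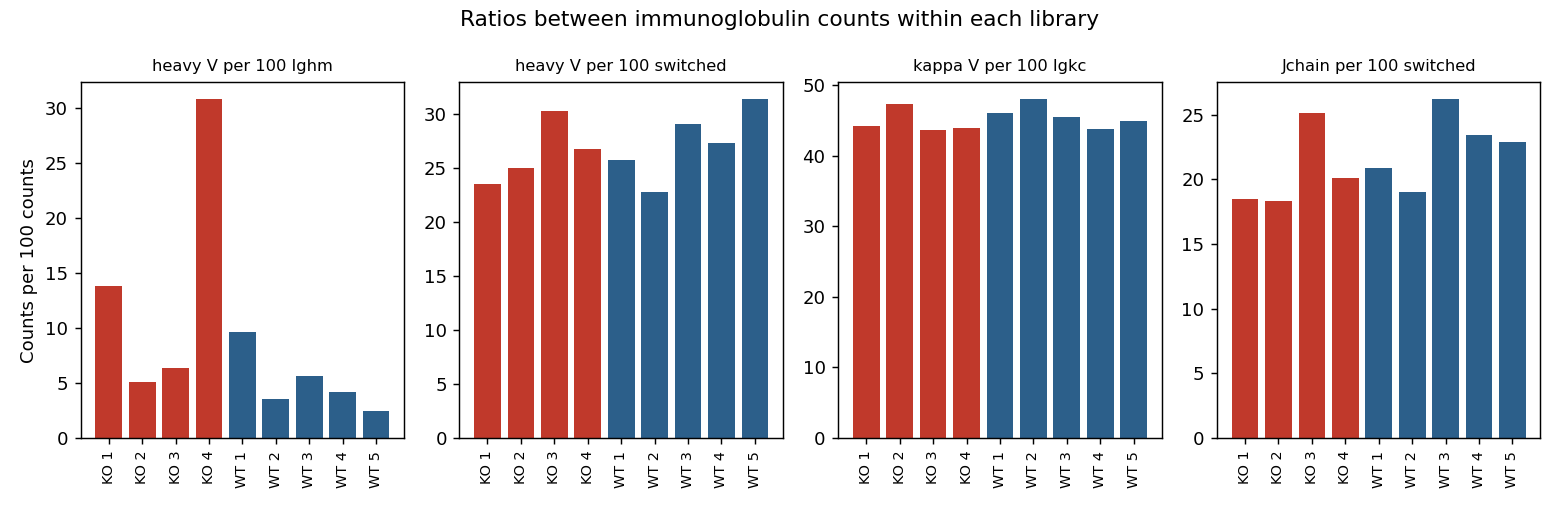
Ratios of raw counts within each library, as counts per 100 counts of the second gene or class (bars, KO in red left of WT in blue, axes from 0). Heavy V per 100 Ighm runs from 2.44 in WT 5 to 30.8 in KO 4, whereas kappa V per 100 Igkc stays between 43.6 and 48.0.

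No small set of heavy V segments dominated in KO 1 or KO 4. The heavy V segment with the most counts took 5.03%, 7.78%, 6.58% and 4.82% of heavy V counts in KO 1 to KO 4, against 7.89%, 7.40%, 5.56%, 11.9% and 9.12% in WT 1 to WT 5. KO 1 and KO 4 thus had the lowest leading shares of the 9 libraries, with 95% Wilson intervals of 4.29 to 5.88 for KO 1 and 4.42 to 5.26 for KO 4. Their 10 leading heavy segments took 34.8% and 36.3% of heavy V counts, against 44.2% to 52.8% in WT, and 17 segments were needed in each to reach 50% of the counts, against 10 to 13 in WT. The inverse Simpson number, which is the number of equally used segments that would give the same concentration, was 43.9, 32.6, 33.8 and 44.3 in KO 1 to KO 4, against 31.65, 28.2, 32.2, 24.85 and 26.9 in WT 1 to WT 5. All 4 KO values lay above all 5 WT values. No test was made on these scores, which sum over the members.

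Depth of V counts differed between libraries, from 307 heavy V counts in WT 5 to 10016 in KO 4. With each library thinned in expectation to 307 heavy V counts, the inverse Simpson number was 39.0 in KO 1, 38.95 in KO 4, 31.0 in KO 2 and 31.5 in KO 3, against 24.15 to 30.4 in WT. The number of heavy segments expected to be seen at that depth was 65.1 in KO 1 and 68.4 in KO 4, against 45.0 to 57.5 in WT. KO 2 and KO 3 were at 57.8 and 56.8, next to WT 1. Unthinned, 89 heavy segments had a count in KO 1 and 101 in KO 4, against 45 to 69 in WT.

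Kappa V segments showed nearly the same concentration in all mice. The leading kappa segment took 13.9% of kappa V counts in KO 1, 9.38% in KO 2, 10.6% in KO 3 and 12.3% in KO 4, against 15.6%, 8.82%, 12.8%, 13.3% and 13.4% in WT 1 to WT 5. The inverse Simpson number was 23.5, 21.9, 23.6 and 23.25 in KO 1 to KO 4, against 22.4, 21.7, 22.0, 21.03 and 21.2 in WT 1 to WT 5. The groups overlapped, with KO 2 between WT 2 and WT 3. The leading segment held at least 8.82% of the counts in each of the 9 libraries. The 10 leading kappa segments took 50.5% of kappa V counts in KO 1 and 53.0% in KO 4, against 49.8% to 59.3% in WT. To reach 50% of the counts took 10 segments in KO 1 and 9 in KO 4, against 8 to 11 in WT.

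**Figure D4:**
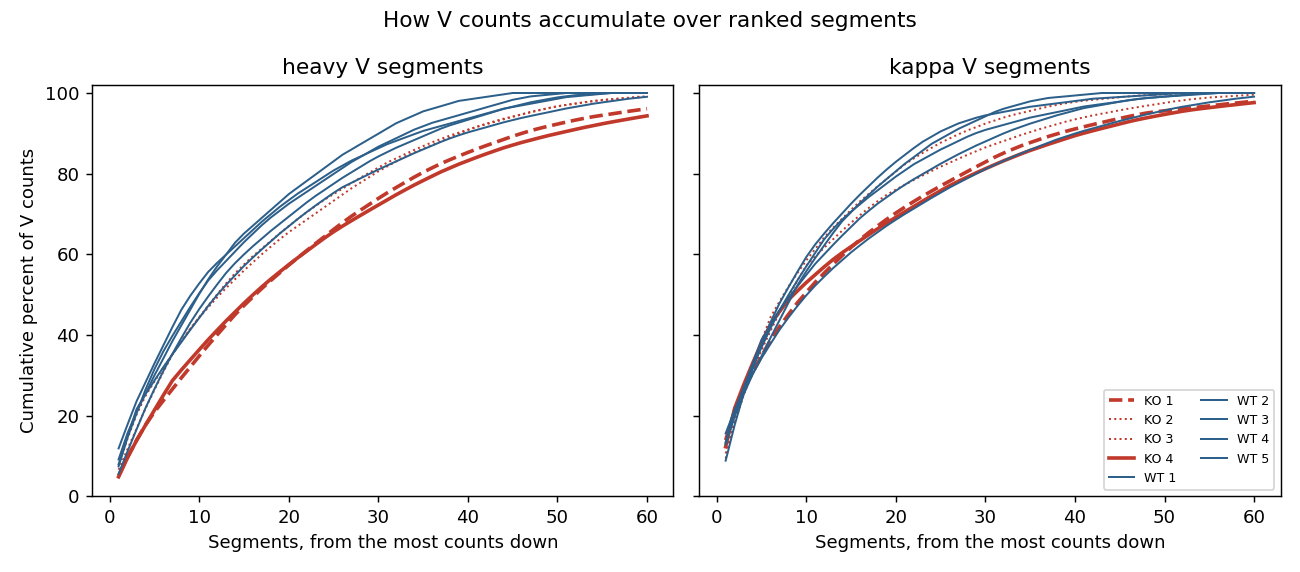
Cumulative percent of V counts over segments ranked by their own counts in each library, for heavy (left) and kappa (right) V segments (KO 4 solid and KO 1 dashed thick red, KO 2 and KO 3 dotted red, WT blue). For heavy V the KO 1 and KO 4 curves rise most slowly, with 34.8% and 36.3% of counts in their 10 leading segments; for kappa V they run close to WT 1.

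The leading segments of KO 1 and KO 4 were partly the same and were also used in WT. Ighv1-26 led the heavy segments in both, with 148 counts in KO 1 and 483 in KO 4, and Ighv3-6 ranked 2 in KO 1 (139 counts) and 3 in KO 4 (425 counts). Igkv10-96 led the kappa segments in KO 1 with 567 counts and ranked 2 in KO 4 with 1283. Igkv5-39 led in KO 4 with 1658 counts. Of the 10 leading segments, KO 1 and KO 4 shared 7 for heavy V and 7 for kappa V, and other pairs shared as many or more. KO 2 also shared 7 heavy segments with KO 3 and with KO 4, and 8 kappa segments were shared by KO 1 with KO 3 and by KO 4 with WT 1. Pairs of WT libraries, whose lists rest on fewer counts, shared 2 to 6 heavy and 2 to 7 kappa segments. Igkv10-96 was also the leading kappa segment of WT 1 and Igkv5-39 that of WT 5.

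The last 120 bases of 6 leading segments are shown because reads can be credited to a segment only where it differs from its relatives. They come from the GENCODE M21 transcripts on GRCm38 (mm10), are written 5′ to 3′ on the coding strand, and end at or near the junction with D or J. Capitals mark bases that do not match the closest other segment of the table in an end-to-end alignment of the last 280 bases.
Ighv1-26: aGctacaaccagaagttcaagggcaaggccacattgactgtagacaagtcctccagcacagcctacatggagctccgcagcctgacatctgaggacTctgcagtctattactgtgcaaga
Ighv3-6: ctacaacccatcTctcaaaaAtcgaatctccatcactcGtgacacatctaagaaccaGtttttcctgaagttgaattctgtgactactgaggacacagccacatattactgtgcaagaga
Igkv10-96: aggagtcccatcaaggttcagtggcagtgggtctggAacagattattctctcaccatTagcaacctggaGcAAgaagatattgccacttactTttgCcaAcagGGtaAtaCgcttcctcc
Igkv5-39: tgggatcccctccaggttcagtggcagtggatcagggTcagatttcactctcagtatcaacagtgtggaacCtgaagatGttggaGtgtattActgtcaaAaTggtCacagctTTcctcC
Igkv1-110: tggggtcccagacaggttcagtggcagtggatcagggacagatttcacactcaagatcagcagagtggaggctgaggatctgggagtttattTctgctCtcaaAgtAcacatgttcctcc
Igkv1-117: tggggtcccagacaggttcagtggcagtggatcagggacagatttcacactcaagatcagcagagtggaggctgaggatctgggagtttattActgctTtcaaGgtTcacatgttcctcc
Ighv1-26 (chr12:114788372-114788805, minus strand) differed from Ighv1-18 at 8 of 280 bases. Ighv3-6 (chr12:114288152-114288582, minus strand) differed from Ighv3-1 at 19. Igkv10-96 (chr6:68631963-68632442, minus strand) differed from Igkv10-94 at 16, and Igkv5-39 (chr6:69900424-69900977, minus strand) from Igkv5-45 at 23. Igkv1-110 (chr6:68270485-68271267, plus strand) and Igkv1-117 (chr6:68121046-68121827, plus strand) were each other's closest relatives, with 9 differences, 4 of them in the stretch shown. All 6 are annotated as V genes and not as pseudogenes. Across the table, the median identity to the closest relative was 94.3% for heavy and 93.2% for kappa segments, and 22 of 117 heavy and 14 of 103 kappa segments were at least 97% identical to another. Counts of single segments in such pairs are uncertain, since how reads that match several places were handled is not stated in the sources used.

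KO 4 had the highest level of each leading segment named here, and WT 1 was high for several of them. Ighv1-26 had 8.49, 1.90, 3.12 and 30.0 CPM in KO 1 to KO 4, against 2.25, 1.46, 1.28, 1.44 and 0.567 CPM in WT 1 to WT 5. KO 2 lay inside the WT range, and the log2 fold change was 2.93 ± 0.87 (SE, edgeR adjusted p = 0.113). Igkv5-39 had 9.58, 2.34, 5.33 and 103 CPM in KO 1 to KO 4, against 1.90, 1.34, 2.19, 1.57 and 4.10 CPM in WT 1 to WT 5. KO 4 was 46.4 times the WT mean here, beside 15.2 times for kappa V as a whole, and the log2 fold change was 3.74 ± 1.23 (SE, edgeR adjusted p = 0.146). Igkv10-96 had 32.5, 3.99, 6.11 and 79.7 CPM in KO 1 to KO 4, against 15.2, 2.49, 3.71, 1.90 and 1.39 CPM in WT 1 to WT 5. WT 1 lay above KO 2 and KO 3 for this segment (log2 fold change 2.60, edgeR adjusted p = 0.225).

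Other heavy leaders included Ighv1-76, at 4.30, 1.46, 2.86 and 23.2 CPM in KO 1 to KO 4, against 0.118, 1.70, 0.609, 0.131 and 0.126 CPM in WT 1 to WT 5 (log2 fold change 3.85, edgeR adjusted p = 0.105). Only WT 2 overlapped KO for it. Ighv1-64, the heavy segment with the highest WT mean, had 4.71, 2.41, 1.82 and 23.0 CPM in KO 1 to KO 4, against 5.99, 1.70, 1.77, 1.83 and 0.756 CPM in WT 1 to WT 5 (log2 fold change 1.70, edgeR adjusted p = 0.323). WT 1 lay above KO 1 there. Ighv1-81 had 6.94, 0.570, 0.845 and 13.7 CPM in KO 1 to KO 4, against 5.27, 0.728, 0.670, 1.90 and 0.315 CPM in WT 1 to WT 5. KO 2 and KO 3 lay inside the WT range for it. The remaining heavy leaders, Ighv1-9, Ighv1-82, Ighv2-9-1, Ighv3-6 and Ighv5-17, had log2 fold changes of 2.99, 2.96, 2.77, 2.30 and 2.77 (edgeR adjusted p = 0.176, 0.126, 0.242, 0.203 and 0.188).

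Among light chain leaders, Igkv1-135 was the only one whose KO and WT values did not overlap. It had 12.3, 3.48, 4.22 and 42.9 CPM in KO 1 to KO 4, against 2.13, 1.58, 1.46, 2.03 and 0.946 CPM in WT 1 to WT 5, and its log2 fold change was 3.25 ± 0.83 (SE, edgeR adjusted p = 0.0843). The smallest adjusted p of any member was 0.0715, for Igkv4-57, which is named after its values were seen. It had 4.99, 1.90, 1.95 and 7.39 CPM in KO 1 to KO 4, against 1.42, 0.0607, 0.792, 0.197 and 0.378 CPM in WT 1 to WT 5 (log2 fold change 2.79 by edgeR). Igkv1-110, Igkv1-117 and Igkv14-111 had log2 fold changes of 2.03, 2.17 and 2.55 (edgeR adjusted p = 0.220, 0.252 and 0.201). Iglv1, the leading lambda segment in KO 1 and KO 4, had 10.3, 1.27, 2.86 and 56.7 CPM in KO 1 to KO 4, against 6.64, 2.43, 4.20, 3.27 and 2.27 CPM in WT 1 to WT 5 (log2 fold change 2.22, edgeR adjusted p = 0.275). KO 2 had the lowest Iglv1 level of the 9 libraries.

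The difference of KO 4 and KO 1 from WT was spread over most V segments. In KO 4, 97 of 117 heavy and 85 of 104 kappa segments lay above each WT library, and in KO 1 67 and 57 did. For KO 3 these numbers were 31 and 25, and for KO 2 they were 13 and 12. These counts take all segments in the table, tested or not. Of all genes tested, 30.6% lay above each WT library in KO 4, 28.5% in KO 1, 16.6% in KO 3 and 17.9% in KO 2. That background leaves out untested genes, so it is not like for like with the counts above. Among tested segments alone, KO 2 lay above each WT library for 3 of 38 heavy and 10 of 41 kappa segments. Of these tested segments, 30 heavy and 29 kappa ones depended on KO counts to be tested. Over segments with a WT mean of at least 0.5 CPM, the median ratio of KO 4 to the WT mean was 13.6 for 28 heavy segments (quartiles 9.72 and 19.9) and 12.4 for 32 kappa segments (7.31 and 17.4). The same medians in KO 1 were 3.99 and 3.27. The segment with the largest gain made up 4.91% of the summed gains over the WT mean for heavy V in KO 4 and 12.85% for kappa V, and 5.45% and 15.2% in KO 1. The 5 largest gains made up 38.8% of the summed gains for kappa V in KO 4 and 36.6% in KO 1. For heavy V they made up 21.8% and 21.7%. With its 10 leading segments removed, KO 4 still had 396 CPM of heavy V and KO 1 had 110 CPM, against a WT maximum of 75.85 CPM with all segments kept. For kappa V the same removal left 394 CPM in KO 4 and 116 CPM in KO 1, against a WT maximum of 97.3 CPM.

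**Figure D5:**
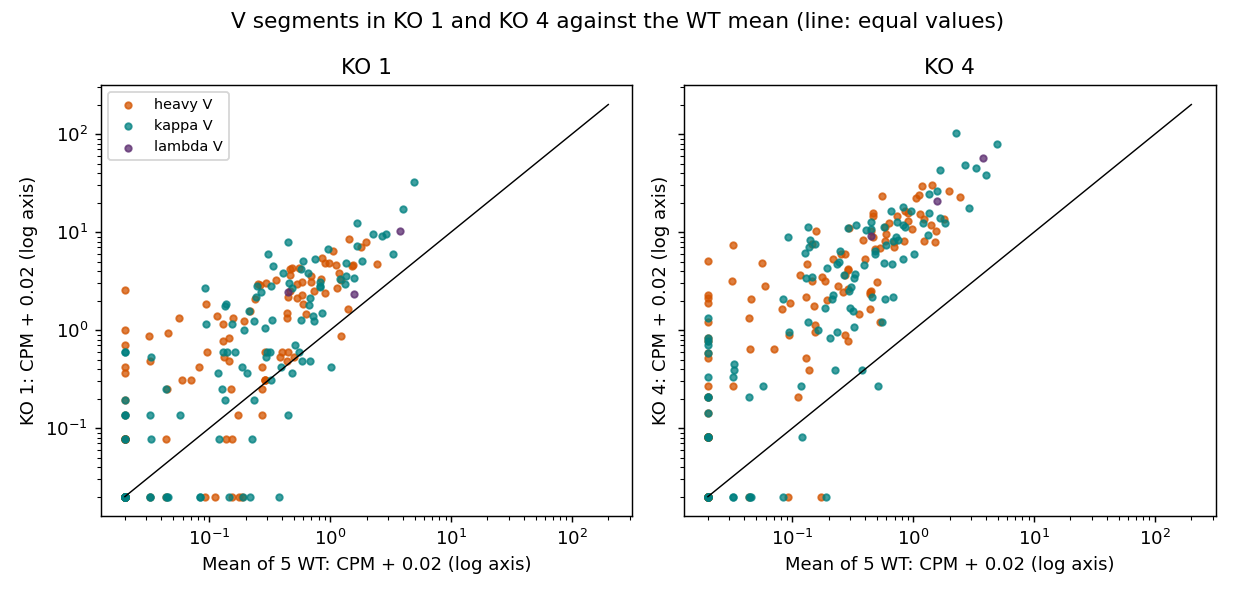
Each V segment in KO 1 (left) and KO 4 (right) against the mean of the 5 WT libraries, as CPM plus 0.02 on log axes, by chain, with the line of equal values. Most segments lie above the line, by a median of 13.6 times for heavy V in KO 4 and 3.99 times in KO 1 among those with a WT mean of at least 0.5 CPM.

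V segments fall into subgroups named by the first number of the symbol. Ighv1, by far the largest heavy subgroup with 62 segments in the table, took 53.1%, 52.6%, 52.1% and 52.5% of heavy V counts in KO 1 to KO 4, against 53.1%, 48.0%, 41.25%, 44.0% and 55.4% in WT 1 to WT 5. The KO values lay within the WT range and closer together (SD 0.382 percentage points in KO and 5.96 in WT). The largest kappa subgroup was Igkv10 in KO 1 and WT 1, Igkv5 in KO 4 and WT 5, and Igkv1 in the other 5 libraries, with 15.5% to 22.1% of kappa V counts. Annotated V pseudogenes took at most 0.211% of heavy and 1.26% of kappa V counts in any library.

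Summed markers of plasma cells and of B cells were highest in KO 4 and next in KO 1, as the immunoglobulin genes were. Single genes weighed heavily in these sums. In KO 4, Jchain held 467 of the 1354 CPM of plasma cell markers and Cd74 held 115 of the 188 CPM of B cell markers. The WT means were 33.5 of 753 CPM for Jchain and 45.0 of 90.7 CPM for Cd74. Of 15 plasma cell markers in the table, 13 were tested and 2 were called, both higher in KO (1.40% of all genes were called higher), with a median log2 fold change of 0.40. DESeq2 called 5 and limma-voom 2 of this list. Creld2, a chaperone of the endoplasmic reticulum, rose to 29.95 ± 4.54 CPM in KO (SD, n = 4), against 22.7 ± 0.441 CPM in WT (SD, n = 5), with edgeR adjusted p = 0.0208. Xbp1, the transcription factor of the secretory program, rose to 98.0 ± 10.2 CPM in KO, against 82.1 ± 2.96 CPM in WT (n = 4 and 5, edgeR adjusted p = 0.0324). By library, Creld2 had 29.7, 26.7, 27.0 and 36.5 CPM in KO 1 to KO 4, against 22.4 to 23.5 CPM in WT. Xbp1 had 91.6, 95.8, 91.5 and 113 CPM in KO 1 to KO 4, against 79.1 to 85.7 CPM in WT. Every KO library, KO 2 included, thus lay above every WT library for Creld2 and for Xbp1, as for 3.94% of all genes tested. Both are also expressed outside plasma cells, and both lost their call without KO 1 and KO 4 together (edgeR adjusted p = 0.0851 and 0.0778). The Creld2 call also ended without WT 3, WT 4 or WT 5, with edgeR adjusted p up to 0.0666. The Xbp1 call ended without KO 3, KO 4, WT 1, WT 3, WT 4 or WT 5, with edgeR adjusted p up to 0.0821.

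Sdc1, Mzb1 and Jchain, which are more restricted to plasma cells, were highest in KO 4, while some other markers of the list were not. Edem1 in KO 4, at 343 CPM, lay inside the WT range of 335 to 357 CPM. Tnfrsf13b in KO 4, at 68.6 CPM, lay inside the WT range of 61.5 to 69.6 CPM. Sdc1, the surface proteoglycan CD138, had 19, 7, 16 and 68 counts in KO 1 to KO 4, against 16, 11, 11, 5 and 7 counts in WT 1 to WT 5. Mzb1, a chaperone of antibody assembly, had 43, 10, 29 and 194 counts in KO 1 to KO 4, against 39, 9, 18, 9 and 8 counts in WT 1 to WT 5. Jchain had 2325, 471, 792 and 7521 counts in KO 1 to KO 4, against 1037, 396, 664, 419 and 224 counts in WT 1 to WT 5 (edgeR adjusted p = 0.185). Each of the 15 markers had a count in at least 1 library, and the list summed to 924, 756, 808 and 1354 CPM in KO 1 to KO 4, against 730 to 777 CPM in WT. The part of such cells in the immunoglobulin counts was not tested.

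Markers of mature B cells differed widely in level. Cd74, the invariant chain of antigen presentation, had 1628, 844, 811 and 1846 counts in KO 1 to KO 4, against 960, 688, 642, 715 and 640 counts in WT 1 to WT 5. Ms4a1, which encodes CD20, had 29, 8, 8 and 40 counts in KO 1 to KO 4, against 18, 4, 5, 6 and 5 counts in WT 1 to WT 5. KO 4, KO 1 and WT 1 were the high libraries for both, and Ms4a1 was not tested. Not every marker of the list followed this order. Bank1 was lowest of the 9 libraries in KO 1, at 3.67 CPM. Cd79b in KO 4, at 18.1 CPM, lay inside the WT range of 15.7 to 18.6 CPM. Of the 8 tested markers, 7 had a positive log2 fold change. Of 15 B cell markers 8 were tested and 0 called by edgeR, 2 of them with an unadjusted p under 0.05 (21.6% of all genes), while DESeq2 called 1 and limma-voom 0. The pair with the smallest p were Cd74 (log2 fold change 0.80, edgeR adjusted p = 0.142) and Cd79b (0.24, edgeR adjusted p = 0.204). The list summed to 99.1 to 188 CPM in KO and 82.3 to 114 CPM in WT, with 0 of 15 markers at 0 throughout. The part of B cells in the immunoglobulin counts was not tested.

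The other marker lists gave 0 calls by edgeR and by limma-voom, while DESeq2 called 1 neutrophil and 2 T or Treg cell markers. At an unadjusted p under 0.05 by edgeR were 1 of 3 tested germinal centre, 0 of 1 precursor, 6 of 11 T or Treg cell, 2 of 4 neutrophil and 0 of 8 macrophage markers, against 21.6% of all genes tested. Of 6 germinal centre markers 3 were tested, with a median log2 fold change of 0.14, Fas at -0.15 (edgeR adjusted p = 0.167) and S1pr2 at 0.14 (edgeR adjusted p = 0.251), and the list summed to 66.3 to 74.5 CPM in KO and 68.6 to 76.6 CPM in WT, with Rgs13 at 0 counts throughout. Among 6 genes of B cell precursors and receptor rearrangement only Dntt was tested (log2 fold change 0.28, edgeR adjusted p = 0.648), and Rag1 and Rag2, the recombinase genes, had at most 2 counts in any library. The 11 T cell and Treg cell markers summed to 7179 to 7658 CPM in KO and 7232 to 7520 CPM in WT, with Trac at 0.14 (edgeR adjusted p = 0.0598) and Trbc1 at -0.15 (edgeR adjusted p = 0.0641). Neutrophil markers summed to 43.3, 1.84, 7.15 and 138 CPM in KO 1 to KO 4, against 1.94 to 7.01 CPM in WT, with Mpo at 3.67 (edgeR adjusted p = 0.163) and S100a9 at 2.93 (edgeR adjusted p = 0.193). Mpo alone held 92.8 of the 138 CPM in KO 4, and its WT mean was 2.26 of 4.39 CPM. Macrophage markers summed to 91.9, 27.0, 48.0 and 145 CPM in KO 1 to KO 4, against 25.85 to 77.9 CPM in WT, with Adgre1 at 1.15 (edgeR adjusted p = 0.234) and C1qb at 1.14 (edgeR adjusted p = 0.302). KO 1 and KO 4 thus also had the highest summed myeloid markers, whose part in the immunoglobulin values was not tested.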

How the data were processed

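RNA from splenic Treg cells of single mice was made into stranded TruSeq libraries, per the labels' protocols. The authors deposited raw counts per gene symbol. STAR 2.7, DESeq2 and mm10 are listed, without their roles, per the submitters' processing notes. How reads were counted, with which annotation and strand setting, is not given in the sources used. All 9 columns matched 1 sample each.

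Counts were tested over 12738 genes with edgeR 4.0.16 (R 4.3.3, robust quasi-likelihood fit, trimmed-mean scaling, default expression filter, no replicate block), with Benjamini-Hochberg adjustment at 0.05. CPM are counts over the library total, and Wilson intervals cover counting error alone. On simulated counts of KO and WT for 12738 genes this test recovered 64.0% of 50 genes changed 1.5-fold and 98.0% of 50 changed 4-fold. The changed genes were drawn at random from all tested genes, so recovery was not measured for the members. Members varied widely between libraries, with SEs of the log2 fold change such as 0.89 for Igha and 1.36 for Ighg2b. Members, lists and tests were chosen with earlier results of these data known. Alternatives were other scalings and filters, DESeq2 1.42.0, limma 3.58.1, replicate blocks and leaving out libraries. Members were placed with GENCODE M21, 236 of 237 by symbol.

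Named genes were all constant genes, the 5 heavy and 5 light V segments with most counts in KO 1 and in KO 4, the 3 of each with the highest WT mean, the called V segments (there were 0), and up to 4 called genes, or else the 2 with the smallest p, per marker list. Other marker genes fall outside this rule and were named with their values known. They include Jchain, Sdc1, Mzb1, Edem1, Tnfrsf13b, Ms4a1, Bank1, Rgs13, Rag1 and Rag2. Division of V counts by annotated length was chosen after seeing the data. Replicates are separate mice, per the labels.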

Additional observations from a re-analysis of the deposited data

Results flagged for a closer look

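Values were set apart where, in KO (n = 4) or WT (n = 5), the highest or lowest library was separated from the nearest other by more than Dixon's 95% limit. Of 184 group values examined, 26 met this, 18 of them for KO 4. Chance gives about 1 in 20, and many of these values share the same reads.

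KO 4 was the high library within KO for the lambda constant genes together (150.0 CPM), lambda V (86.3 CPM), the Ighg genes together (609 CPM), Ighg1 (84.8 CPM), Ighg2b (319 CPM), Ighg3 (41.7 CPM), Iglc2 (38.9 CPM) and Iglc3 (44.9 CPM). It was also high for the V segments Ighv1-64 (23.0 CPM), Ighv1-76 (23.2 CPM), Ighv1-9 (29.5 CPM), Igkv1-117 (44.9 CPM), Igkv14-111 (48.4 CPM), Igkv5-39 (103 CPM) and Iglv1 (56.7 CPM). Ighe in KO 4 (1.74 CPM, 0.0748% of switched counts) stood above KO 1 to KO 3, which had none. The share of Ighd among heavy constant counts was lowest in KO 4 (0.291%), where the denominator was largest.

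WT 1 stood apart from the other WT libraries for Ighe (2.25 CPM, 0.766% of switched counts), Ighv1-64 (5.99 CPM), Igkv10-96 (15.2 CPM) and the summed B cell markers (114 CPM). WT 5 was the high WT library for Creld2 (23.5 CPM), within a narrow range. Iglc4 was set apart by single counts, 0.0574 CPM in KO 1 and 0.0655 CPM in WT 4.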

How the results depend on the processing

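By edgeR 0 members were called under the other scalings, a mean CPM of at least 1 and without KO 1 and KO 4 together. The same count was 0 by limma-voom, 17 by DESeq2, 5 with a non-robust fit and 3 with no filter, all higher in KO, and 0 to 9 in fits that left out 1 library, the 9 without KO 2. The title number as a replicate block gave 2 members and the bracketed number as a replicate block gave 5. These blocks leave out 1 WT library each, and no label says that either number pairs the mice. Same-numbered libraries deviated together with r of -0.066 to 0.101 and -0.261 to 0.1. Such correlations cannot decide whether the numbers mark a pair or a batch. Over all genes, the bracketed-number block gave 236 calls higher and 220 lower in KO. Constant genes had 5 calls by DESeq2 and 1 with a non-robust fit. All genes called were 418, against 919 by DESeq2, 26 with the title-number replicate block, 118 without KO 1 and KO 4, and 97 to 697 when 1 library was left out (97 without WT 3, 697 without WT 2, 103 without KO 4). The log2 fold change of Ighd ran from -0.09 (without KO 1) to 0.286 (without KO 2) and was -0.16 without KO 1 and KO 4, and in the last fit Iglc1 was -0.48 and Iglc3 -0.245; the cause was not tested. By V subgroup, which pools segments, the leading share was 52.6% in KO and 48.3% in WT for heavy V and 17.4% in KO and 18.5% in WT for kappa V, with inverse Simpson numbers of 3.29 in KO and 3.78 in WT for heavy V, and 9.03 in KO and 8.99 in WT for kappa V. Thinning, a minimum of 10 counts and division by length (chosen after seeing the data) moved the concentration means by less than 1 SD. Shares in libraries such as WT 5, with 307 heavy V counts, are limited by depth.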
